A study of Mus musculus with 7 samples.

Results

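Dicer1 and a group of genes that regulate RNA after it has been transcribed were followed across Dicer1-deficient and control retinal pigment epithelium (RPE), a single sheet of pigmented cells that serves the photoreceptors. The genes were taken from a list of 10 names: Dicer1, Ddx5, Tnrc6c, Msi2, Nova1, Cpeb4, Zfp36l1, Ptbp1, Srsf1 and Rbfox3. All probe sets annotated with exactly 1 of these symbols were used. This gave 9 genes with 115 probe sets, of 5017 genes and 65535 probe sets in the deposited values. Whether these cover the whole array was not checked. Shares of all genes or all probe sets refer to the deposited values alone. Srsf1 was annotated under its older symbol Sfrs1, and Rbfox3 was not analysed here.

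The series measured total RNA of RPE dissected from mice at postnatal day 5 on Affymetrix arrays, with 3 Dicer1-deficient and 4 control arrays. The Dicer1-deficient mice carried Dicer1loxP/loxP together with Dct-Cre, a recombinase under the promoter of the pigment cell gene dopachrome tautomerase. The pups came from a mating of Dicer1 flox/+ mice carrying Dct cre with flox/flox mice. The controls are called control RPE, and the labels do not give their genotype or say which part of Dicer1 is floxed. Cells in which Dct-Cre is not active would keep Dicer1, and RNA of other cells in the dissected tissue adds to every signal. Fewer cells of a type and less RNA per cell cannot be told apart in such samples. The labels do not say whether each array stands for an animal of its own or a pool, and p-values cover the spread of these arrays alone, which may be partly technical.

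Dicer1 encodes the ribonuclease that cuts hairpin precursors into mature microRNAs, short RNAs that guide Argonaute proteins to messenger RNAs. Upstream of it, the Drosha complex, with the helicase Ddx5 as a cofactor, releases the hairpins from primary transcripts. Downstream, the GW182 protein Tnrc6c joins Argonaute to the enzymes that shorten poly(A) tails. The other genes are described here by their roles on messenger RNA: Ptbp1, Srsf1 and Nova1 in splicing, Msi2 and Cpeb4 in translation and Zfp36l1 in decay.

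Of the 10 listed genes, 3 hold an annotated microRNA hairpin within the span that RefSeq gives the gene. These hairpins are shown because they are the kind of RNA on which Dicer1 acts, and no level of them was measured on these arrays. Mir3064 lies inside Ddx5 on the same strand, at chr11:106782693-106782759 of GRCm38.p6. Mir6910 lies inside Ptbp1 on the same strand, at chr10:79862587-79862652. Mir378b lies within the span of Msi2 on the opposite strand, at chr11:88352773-88352864. The sequences are RefSeq's, written 5′ to 3′, with the annotated mature arms in capitals.
Mir3064: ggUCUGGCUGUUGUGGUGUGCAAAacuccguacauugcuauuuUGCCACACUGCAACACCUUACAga
Mir6910: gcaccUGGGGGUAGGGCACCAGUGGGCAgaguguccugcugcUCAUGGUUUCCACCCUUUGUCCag
Mir378b: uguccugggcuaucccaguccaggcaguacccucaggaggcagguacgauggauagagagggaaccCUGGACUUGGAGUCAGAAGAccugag
Mir3064 has arms of 22 and 22 bases with 19 bases between them. Mir6910 has arms of 23 and 22 bases with 14 bases between them. Mir378b has 1 annotated arm of 20 bases.

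The deposited values were log2 signals, whose quartiles over all probe sets and arrays were 4.63 and 8.13 around a median of 6.22. Control 4 stood apart, with a median signal of 6.05 against 6.22 to 6.26 in the other arrays. It correlated with the other 6 arrays at 0.943 to 0.951 across all probe sets, where the other arrays correlated with each other at 0.971 to 0.988. It was the highest or the lowest of the 7 arrays at 63.5% of the 115 probe sets described here, against 57.9% of all probe sets. Results that turn on this array are therefore given with and without it. RPE markers averaged 11.30 to 11.37 in Dicer1-deficient and 11.58 to 11.69 in control arrays over the 7 measured of 22 listed, so that the groups did not overlap. Of these 7, Kcnj13 fell and Atp1b1 rose in the limma test, while the other 5 did not pass. On the mean of probe sets Sulf1, Rdh5 and Rdh10 fell too. Melanocyte and Schwann cell markers (4 measured) averaged 8.01 to 8.05 in Dicer1-deficient and 8.26 to 8.79 in control arrays. None of these passed at the brightest probe set. On the mean of probe sets Pax3 and Erbb3 fell (limma adjusted p = 0.00336 and 0.0171), while Cdh19 and S100b did not pass. Markers of fibroblasts and sclera (11 measured) averaged 11.06 to 11.25 in Dicer1-deficient and 11.42 to 11.53 in control arrays, and of these Epyc fell. On the mean of probe sets Omd and Fmod fell too (limma adjusted p = 0.0420 and 0.0240). Markers of endothelium and blood (4 measured) averaged 7.24 to 7.63 in Dicer1-deficient and 7.85 to 8.09 in control arrays, and of these Madcam1 fell. The groups did not overlap in the averages of any of these 3 lists. Gene by gene, they were apart for Pax3 and Erbb3 of the 4 melanocyte and Schwann genes, and for 5 of the 11 of fibroblasts and sclera. In the endothelium and blood list they were apart for Madcam1 alone, at a log2 fold change of -1.88. Icam2 (-0.30), Slc4a1 (-0.18) and Pecam1 (-0.10) overlapped. Over all genes 16.3% were apart. Photoreceptor markers (6 measured) averaged 6.27 to 6.97 in Dicer1-deficient and 5.73 to 6.56 in control arrays, and the groups overlapped. Retinal progenitor markers (3 measured) averaged 5.90 to 6.96 in Dicer1-deficient and 5.13 to 6.09 in control arrays, which also overlapped. All 3 had positive log2 fold changes, and Nr2e1 rose, at 0.69 with an adjusted p of 0.0155 in limma. With the mean of its probe sets Nr2e1 did not pass (limma adjusted p = 0.0758). Their part in the results below was not tested.

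The messenger RNA of the 9 measured regulators was close to level between Dicer1-deficient and control RPE. At the brightest probe set of each gene, log2 fold changes (Dicer1-deficient minus control) ran from -0.09 for Tnrc6c to 0.15 for Zfp36l1. None of the 9 passed limma at 0.05, adjusted by Benjamini-Hochberg over all genes, where 2.33% of all genes passed. None had an unadjusted limma p under 0.05 either, where 14.5% of all genes had one. Without control 4, 2 of the 9 had one, Msi2 (0.22, 95% interval 0.03 to 0.40) and Zfp36l1 (0.25, 95% interval 0.06 to 0.43), where 23.3% of all genes did, and none passed after adjustment, where 5.18% of all genes passed. At these probe sets the arrays of the groups overlapped in all 9, and they did not in 16.3% of all genes. Taken over the 9 genes, the 95% intervals of limma reached from -0.41 to 0.49 on the log2 scale, that is from 0.753-fold to 1.40-fold. The single intervals were narrower, from -0.14 to 0.31 for Cpeb4 at the narrow end, and no detection limit was tested.

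**Figure D1:**
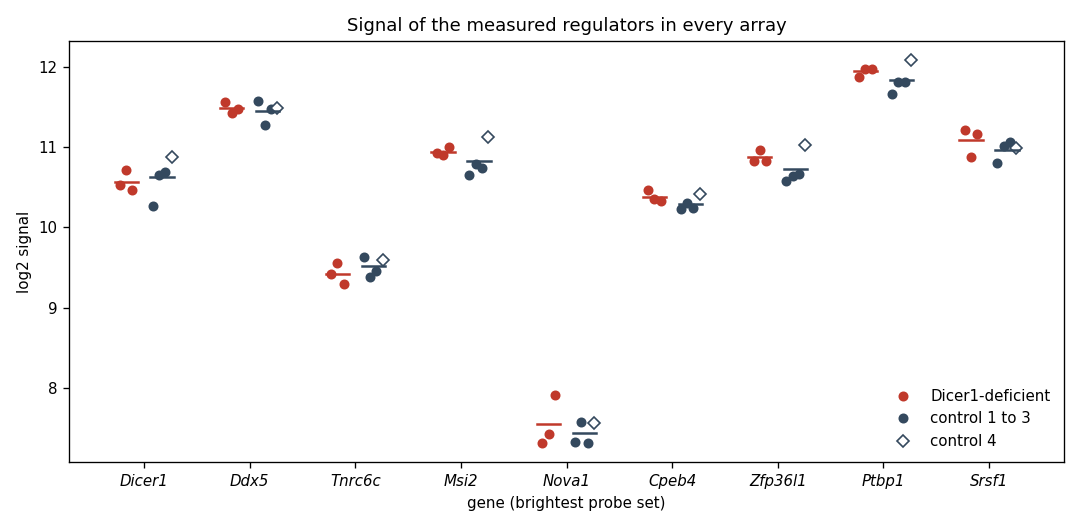
Log2 signal of each of the 9 genes at its brightest probe set, with 1 point per array, Dicer1-deficient to the left (red) and control to the right (dark; the open diamond is control 4), and lines at group means. The groups overlap for every gene, and control 4 is the highest array for Dicer1, Msi2, Zfp36l1 and Ptbp1.

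Dicer1 itself was measured at 28 probe sets, 24 of them above the median level of all probe sets. The mean of its 28 log2 signals was 8.23, 8.26 and 8.21 in Dicer1-deficient arrays 1 to 3, against 8.29, 8.38, 8.33 and 8.10 in controls 1 to 4. The 3 Dicer1-deficient arrays lay below controls 1 to 3 and above control 4. The difference of these means was -0.04 (95% interval -0.24 to 0.16, limma adjusted p = 0.921), and -0.10 without control 4 (limma adjusted p = 0.249). The median of the 28 signals turned the sign, at 0.29 (limma adjusted p = 0.300). At the brightest probe set the log2 fold change was -0.05 (95% interval -0.41 to 0.31, limma adjusted p = 0.961).

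The probe sets of Dicer1 did not move together. The log2 fold change was positive at 14 and negative at 14, and 16 of the 28 lay within 0.25 of 0. Probe sets are given here in the order of their numbers, which the files do not tie to positions in the gene. The probe set numbered 10402447, the third in this order, read 5.76, 5.51 and 5.29 in Dicer1-deficient arrays, against 6.37, 6.28, 6.11 and 6.46 in controls. The groups did not overlap there, and all 3 Dicer1-deficient values were dim, under the median signal of 6.22. Its log2 fold change was -0.78 (95% interval -1.14 to -0.42), with a limma adjusted p over all probe sets of 0.0828, and of 0.0712 without control 4. Against the other probe sets of Dicer1 on the same array it differed by -0.77 between the groups (limma adjusted p = 0.501). The neighbouring probe sets 10402446 and 10402448 had log2 fold changes of 0.36 and -0.40, and neither passed.

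Other Dicer1 probe sets turned on single arrays. Probe set 10402463 read 5.20, 5.37 and 4.13 in Dicer1-deficient arrays, against 6.22, 6.42, 6.83 and 3.80 in controls. Control 4 was thus the lowest of all arrays there, while controls 1 to 3 were the highest. Its log2 fold change was -0.92 with control 4 (limma adjusted p = 0.729) and -1.59 without it (limma adjusted p = 0.0773). Probe set 10402471 gave the most positive value, 0.49, and read 6.82, 6.53 and 7.10 in Dicer1-deficient arrays, against 7.05, 6.62, 6.82 and 4.80 in controls. Without control 4 its log2 fold change was -0.02. Probe set 10402464 was the only one of Dicer1 at which the Dicer1-deficient arrays (8.51, 8.51 and 8.46) all lay above the controls (8.31, 8.21, 8.22 and 8.24), a difference of 0.25 (limma adjusted p = 0.429). The 95% interval of 25 of the 28 probe sets lay above -1, a fall of the log2 signal by 1. A probe set outside the floxed part would not report the deletion, so level signals do not check the genotype.

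**Figure D2:**
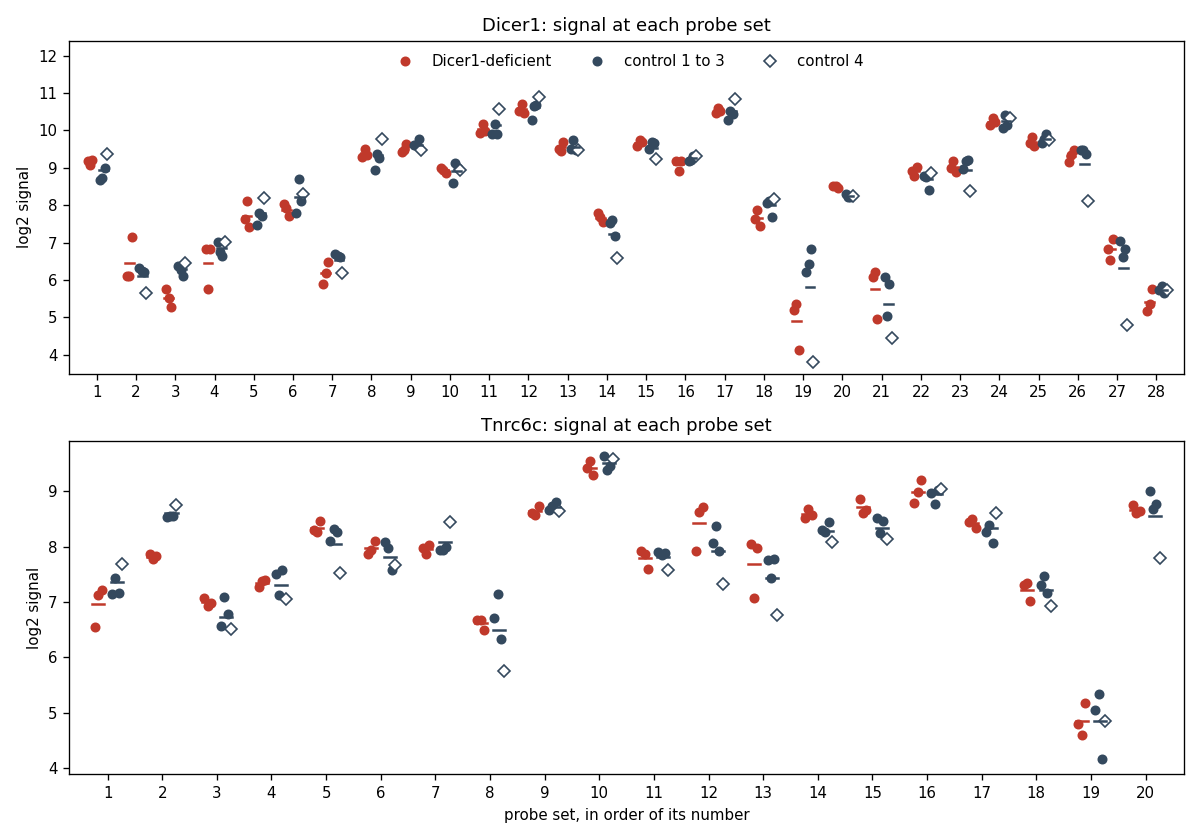
Log2 signal at the 28 probe sets of Dicer1 (top) and the 20 of Tnrc6c (bottom) in the order of their numbers, with 1 point per array, Dicer1-deficient to the left in red, controls to the right (open diamond: control 4), and lines at group means. Dicer1 probe set 3 (10402447) and Tnrc6c probe set 2 (10382937) are lower in all Dicer1-deficient arrays than in any control.

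Tnrc6c, the GW182 family gene, held the 1 probe set of the 115 that passed the test over all probe sets. Probe set 10382937 read 7.86, 7.77 and 7.83 in Dicer1-deficient arrays, against 8.53, 8.56, 8.55 and 8.76 in controls. The groups did not overlap, and the arrays of each group lay close together. It fell by 0.78 on the log2 scale in Dicer1-deficient RPE (SE 0.12, 95% interval -1.05 to -0.51, limma adjusted p = 0.0299, and 0.0184 without control 4). Of all probe sets 0.856% passed this test, and of the 115 described here 0.870%, which is close to that background. In the lower direction 0.323% of all probe sets passed, and without control 4 1.86% passed in either direction. The call was lost without any 1 of the other 6 arrays, at limma adjusted p of 0.0823 to 0.147, with the fold change kept at -0.80 to -0.76. It was also lost with each array centred on its median (limma adjusted p = 0.0612).

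The neighbour 10382936 lay in the same direction, at -0.40, with overlapping arrays (limma adjusted p = 0.560), and the neighbour on the other side, 10382938, was at 0.26. Of the 20 probe sets of Tnrc6c 14 had positive log2 fold changes, and 10 without control 4. Its brightest probe set, 10382945, read 9.42, 9.55 and 9.29 in Dicer1-deficient arrays, against 9.63, 9.38, 9.45 and 9.59 in controls. Probe sets 10382949 and 10382950 were higher in all Dicer1-deficient arrays than in any control, with log2 fold changes of 0.31 and 0.37 that did not pass (limma adjusted p = 0.432 and 0.382). The most positive value, 0.50 at probe set 10382947, came with overlapping arrays. Set against the mean of the other probe sets of Tnrc6c on the same array, 10382937 differed between the groups by -0.88 (SE 0.16). This did not pass limma with adjustment over all probe sets of genes with at least 3 (adjusted p = 0.275, and 0.0971 without control 4). With diffSplice, limma's test for unequal change within a gene, which treats the probe sets of an array as independent, it passed (adjusted p = 0.0450).

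None of the 115 probe sets passed the limma test against its own gene, which 0.038% of all tested probe sets passed. At an unadjusted limma p under 0.05 there were 6 of the 115, or 5.22%, against 5.70% of all. The share of probe sets whose groups did not overlap was also close to that of all deposited probe sets. It was 13.0% of the 115 (12 higher and 3 lower) against 13.3% of all (7.25% higher and 6.1% lower).

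Ddx5 encodes a DEAD-box RNA helicase that also takes part in splicing and transcription. At its brightest probe set, 10392256, it read 11.56, 11.42 and 11.47 in Dicer1-deficient arrays, against 11.58, 11.28, 11.47 and 11.49 in controls. The groups overlapped fully, with a log2 fold change of 0.03 (95% interval -0.21 to 0.27). Its lowest value was -0.31 at probe set 10392252, where the Dicer1-deficient arrays (8.94, 9.15 and 8.87) lay below the controls (9.16, 9.16, 9.31 and 9.55). Its highest was 0.18 at probe set 10392258, where they lay above (10.90, 11.02 and 10.93, against 10.81, 10.86, 10.85 and 10.57). Neither passed (limma adjusted p = 0.501 and 0.683). Without control 4 the value at 10392258 was 0.11, and 10392254 was then the highest at 0.14. Probe set 10385485, also annotated as Ddx5, has a number far from the run of the other 7 and may stand for a copy elsewhere. It read 10.49 to 10.50 in Dicer1-deficient and 10.31 to 10.64 in control arrays.

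**Figure D3:**
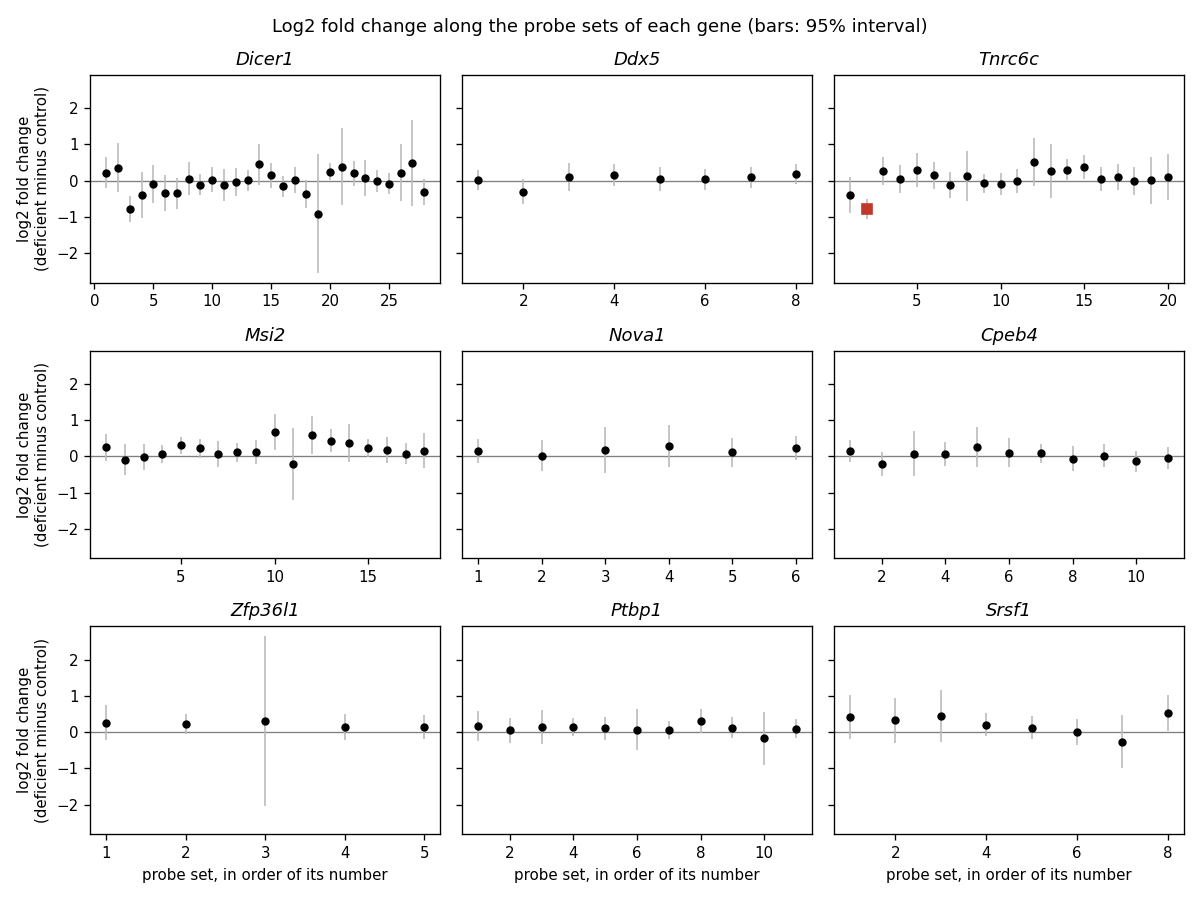
Log2 fold change (Dicer1-deficient minus control) at each probe set of the 9 genes in the order of probe set numbers, with bars for the 95% interval of limma. The red square is Tnrc6c probe set 10382937 at -0.78, the 1 probe set past the test; Msi2 lies above 0 at 15 of 18 probe sets.

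Msi2, an RNA-binding protein of stem and progenitor cells that controls translation, leaned one way at most of its probe sets, though no probe set passed. The log2 fold change was positive at 15 of its 18 probe sets, and at 17 without control 4, with a median of 0.17 both ways. Over all probe sets the share of positive values was 50.6%. Over the 115 probe sets described here it was 73%, with 83.3% for Msi2. By gene it ran from 50% for Dicer1 to 100% for Nova1 and Zfp36l1, so the lean was not particular to Msi2. Without control 4 the share was 67.8% over the 115 and 50.7% over all probe sets. By gene it then ran from 50% for Dicer1 and Tnrc6c to 100% for Nova1, with 94.4% for Msi2. With each array centred on its median it was 66.1% over the 115 and 45.5% over all. Probe sets of a gene were read on the same arrays and are not independent, so these shares are no test. The mean of the 18 log2 signals of Msi2 was 8.94, 9.10 and 9.01 in Dicer1-deficient arrays, against 8.74, 8.86, 8.88 and 8.80 in controls. On this measure the groups were apart for Msi2 and Ptbp1 of the 9 genes, and for 18.9% of all genes. The difference was 0.19 (95% interval 0.01 to 0.38) and did not pass over all genes (limma adjusted p = 0.251, and 0.0979 without control 4), where 5.86% of all genes passed on this measure.

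Of the Msi2 probe sets, 5 were higher in all Dicer1-deficient arrays than in any control. The largest of these was at 10389693, at 9.61, 9.75 and 9.63 in Dicer1-deficient arrays, against 9.27, 9.41, 9.25 and 8.99 in controls, a difference of 0.43 on the log2 scale (limma adjusted p = 0.260). Probe set 10389685 had the smallest spread within groups, at 9.98 to 10.02 in Dicer1-deficient arrays, against 9.69, 9.71, 9.74 and 9.66 in controls, a difference of 0.30 (limma adjusted p = 0.318). The largest value, 0.67 at probe set 10389690, came from dim signals of 4.84, 5.37 and 5.28 in Dicer1-deficient arrays, against 4.32, 4.85, 4.66 and 4.14 in controls. The lowest, -0.21 at probe set 10389691, rested on control 4 at 6.23, with controls 1 to 3 at 4.46 to 4.87 and Dicer1-deficient arrays at 4.51 to 5.39. At the brightest probe set, 10389689, the Dicer1-deficient arrays averaged 10.94 ± 0.05 (SD, n = 3), against 10.65, 10.79, 10.74 and 11.13 in controls 1 to 4. They lay above controls 1 to 3 and below control 4, and the log2 fold change was 0.12 with control 4 and 0.22 without it (limma adjusted p = 0.823 and 0.161).

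**Figure D4:**
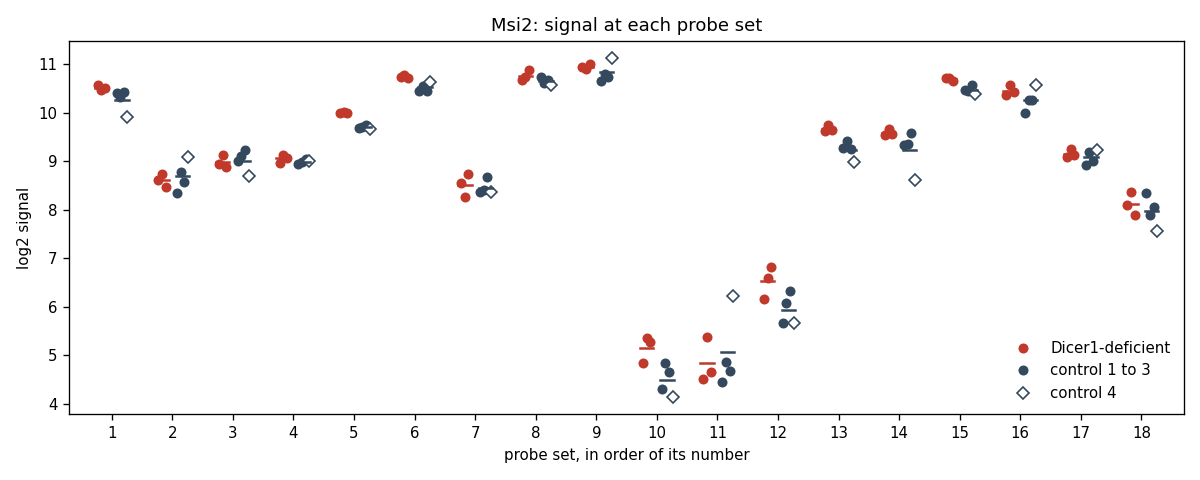
Log2 signal at the 18 probe sets of Msi2 in the order of their numbers, with 1 point per array, Dicer1-deficient to the left in red, controls to the right (open diamond: control 4), and lines at group means. At 5 probe sets all red points lie above all controls, and at probe set 11 (10389691) control 4 alone stands high at 6.23.

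Among the splicing regulators, Ptbp1, the polypyrimidine tract binding protein that represses neuronal exons in non-neuronal cells, read 11.88, 11.98 and 11.98 at probe set 10364523, its brightest, in Dicer1-deficient RPE. The controls read 11.66, 11.81, 11.81 and 12.09, so that control 4 alone was above the Dicer1-deficient arrays. Their log2 fold change was 0.10 (95% interval -0.17 to 0.38), and 0.18 without control 4 (limma adjusted p = 0.233). Of its 11 probe sets 10 were positive, from -0.17 at 10364528 to 0.31 at 10364526, and none passed. At 10364526 the Dicer1-deficient arrays (9.95 to 10.02) lay above the controls (9.71, 9.75, 9.88 and 9.38). The mean of its 11 log2 signals was 9.54, 9.48 and 9.58 in Dicer1-deficient arrays, against 9.44, 9.39, 9.46 and 9.44 in controls, so that on this measure the groups did not overlap. The difference of 0.10 did not pass (limma adjusted p = 0.621). Probe set 10407391, numbered far from the other 10, may stand for a copy elsewhere and had a log2 fold change of 0.10.

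Srsf1, a serine and arginine rich protein that promotes exon inclusion, read 11.21, 10.88 and 11.17 in Dicer1-deficient arrays, against 10.80, 11.01, 11.07 and 10.99 in controls, at probe set 10380215. This was a log2 fold change of 0.12 (95% interval -0.16 to 0.40). Control 4 was the lowest array at 6 of its 8 probe sets, and the median log2 fold change of the 8 was 0.26 with that array and 0.13 without it. The highest value was 0.52 at probe set 10380218, with Dicer1-deficient arrays at 8.30, 8.45 and 8.19, against 7.97, 8.04, 7.96 and 7.23 in controls. This did not pass (limma adjusted p = 0.425), and without control 4 it was 0.33. The lowest was -0.26 at probe set 10380217, where the Dicer1-deficient arrays (6.68 to 7.00) lay below controls 1 to 3 (7.19 to 7.76) and above control 4 (6.28). Without control 4 it was -0.54 (limma adjusted p = 0.208).

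Nova1, a splicing factor of neurons, was dim, with 4 of its 6 probe sets below the median level of all probe sets. At the brightest, 10400161, it read 7.31, 7.42 and 7.91 in Dicer1-deficient arrays, against 7.32, 7.57, 7.31 and 7.56 in controls. Dicer1-deficient array 3 was the highest and the others lay within the control range. The log2 fold change was 0.11 (95% interval -0.27 to 0.49), and it was -0.07 without that array. All 6 probe sets had positive values, from 0.02 at 10400158 to 0.29 at 10400160, with overlapping groups at each. Retinal neuron markers (8 measured of 36 listed) averaged 6.25 to 6.35 in Dicer1-deficient and 6.12 to 6.42 in control arrays. This average hides members that moved in opposite directions. Tfap2a fell, with a log2 fold change of -0.99 and an adjusted p of 0.047 in limma. Tfap2b was higher in all Dicer1-deficient arrays than in any control, at 0.86, but missed the threshold (limma adjusted p = 0.0938). With the mean of probe sets both passed.

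Of the regulators of translation and decay, Cpeb4, which binds the cytoplasmic polyadenylation element and controls poly(A) length, read 10.47, 10.35 and 10.33 in Dicer1-deficient arrays, against 10.23, 10.30, 10.24 and 10.42 in controls, at probe set 10375009. This gave a log2 fold change of 0.08 (95% interval -0.14 to 0.31), the narrowest interval of the 9 genes. Along its 11 probe sets it ran from -0.22 at 10375004 to 0.26 at 10375007, with overlapping groups at each. At 10375007 control 4 was low, at 5.11 beside 5.84 to 6.16 in the other controls, and without it the value was 0.05.

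Zfp36l1, a zinc finger protein that binds AU-rich elements and recruits deadenylases, read 10.83, 10.96 and 10.83 in Dicer1-deficient arrays, against 10.58, 10.64, 10.66 and 11.03 in controls, at probe set 10401243. The Dicer1-deficient arrays lay above controls 1 to 3 and below control 4. The log2 fold change was 0.15 (95% interval -0.15 to 0.44), and 0.25 without control 4 (limma adjusted p = 0.125). All 5 probe sets had positive values, and 4 did without control 4. Probe set 10401241 was too variable to compare, at 6.16, 3.21 and 7.21 in Dicer1-deficient arrays, against 5.59, 5.11, 6.61 and 3.54 in controls, and its interval ran from -2.03 to 2.66.

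Related genes were followed in 4 lists, named after textbook roles. Of the microRNA pathway 12 of 41 listed genes were measured, of the splicing factors 18 of 64, and of deadenylation and decay 14 of 52. Drosha and the Argonaute genes were not among those measured in the deposited values, which does not show whether the array holds them. None of the measured genes of these lists passed limma over all genes. Their median log2 fold changes were -0.01, 0.06 and 0.10, against -0.01 over all genes. The smallest p in these lists belonged to Dis3l2, an exonuclease of uridylated precursors (log2 fold change 0.23), Srsf10, a splicing repressor (0.19), and Tob1, an antiproliferative protein that recruits deadenylases (0.33). The next were Dhx9, a helicase, at 0.12 and Lin28b, which blocks let-7 maturation, at -0.30, then Rbm24 at -0.44 and Hnrnph3 at 0.15 among splicing factors, and Btg2 at 0.51 and Cnot8 at -0.36 in the decay list. All 9 missed the limma threshold, at adjusted p of 0.341 to 0.712. Control 4 was the highest array for Lin28b (5.30, other controls 4.55 to 4.64), Rbm24 (9.33, others 8.15 to 8.40) and Cnot8 (9.12, others 8.07 to 8.46). It was the lowest array for Dis3l2, Srsf10 and Tob1. On the mean of probe sets Lin28b was at -0.03, Cnot8 at -0.11 and Rbm24 at 0.19. Values without control 4 are not given for these genes. Of the 13 measured genes of translational control (50 listed) 2 rose and none fell, where 1.42% of all genes rose.

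These were Igf2bp1 and Larp4b. Igf2bp1, an oncofetal protein that stabilizes messenger RNAs, read 8.51, 8.55 and 8.42 in Dicer1-deficient arrays, against 7.36, 7.08, 7.56 and 7.60 in controls, or 1.09 higher on the log2 scale (SE 0.14, limma adjusted p = 0.00902). On the mean of its 16 probe sets it was 1.90 higher (limma adjusted p = 2.15e-05). Larp4b, which binds AU-rich RNA and promotes translation, read 11.32, 11.34 and 11.35 in Dicer1-deficient arrays, against 10.71, 10.96, 10.77 and 10.86 in controls. The groups were apart by more than their own spread, and the log2 difference was 0.51 (SE 0.10, limma adjusted p = 0.0458). Pcbp3, a poly(C)-binding protein, differed by 0.50 on the log2 scale, which did not pass (limma adjusted p = 0.107). With the median of a gene's probe sets, and with arrays centred on their medians, 1 gene of this list passed, and between 0 and 2 did with 1 array left out.

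**Figure D5:**
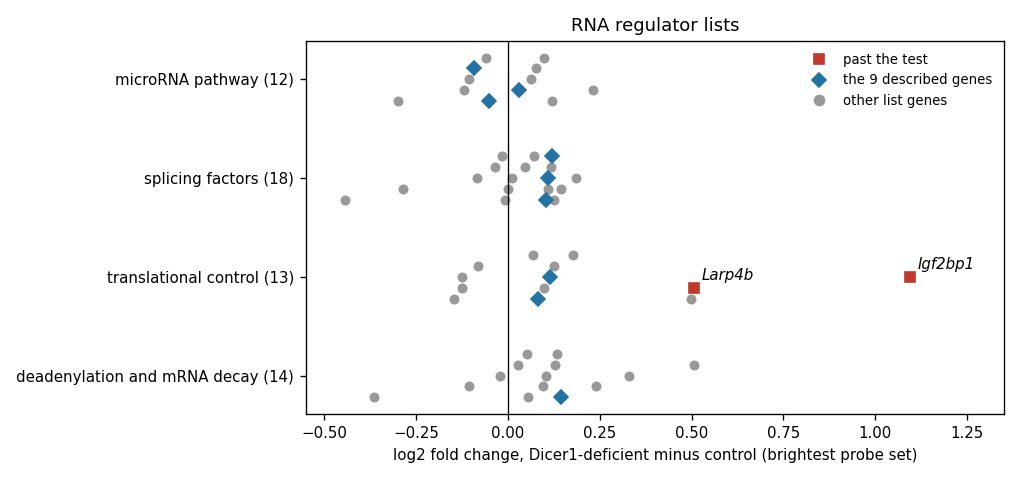
Log2 fold change (Dicer1-deficient minus control, brightest probe set) of the measured genes of the 4 lists, with their number in parentheses, blue diamonds for the 9 described genes and red squares for genes past the limma test. Igf2bp1 at 1.09 and Larp4b at 0.51 are the 2 past the test, and the blue diamonds lie between -0.09 and 0.15.

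In pattern over the 7 arrays, the genes most like Dicer1 at brightest probe sets were Olfr806, Rcvrn and 1700019M22Rik, with Pearson r of 0.980, 0.956 and 0.956. This is a description of the same 7 arrays, with no test, and they are the 3 highest of the 5017 genes.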

How the data were processed

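The authors deposited 1 table of log2 signals, a row per probe set and a column per array. The submitters' processing notes name RMA and Partek 6.6 without saying what each did, and values of 2.71 to 13.5 were taken as log2. Its genome build and filters were not given in the sources used here. The platform annotation gave 53644 probe sets 1 gene symbol, 877 several and 11014 none, and symbols were updated with the RefSeq gene table of GRCm38.p6 (698 updated, 13 unmatched). No detection calls were used.

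Groups came from the labels, and replicate numbers only name arrays. Fits used limma 3.58.1 in R 4.3.3 (lmFit and eBayes, two-sided, Benjamini-Hochberg, threshold 0.05) on the brightest probe set per gene, on all 65535 probe sets, and on each probe set minus the mean of the others of its gene (genes with at least 3). Errors are SEs or 95% intervals of limma, which are not adjusted for the number of genes. The code was tested on simulated data. The number of arrays limits the precision. The members and lists were chosen with earlier results of these data known. Named probe sets are the brightest, any past a test and the extremes of each gene, with others named after their values were seen. Of each list, genes past the test and those with the smallest p are named. Alternatives were other gene summaries, normalization, filters, moderation, array weights, thresholds, and fits short of 1 array. Added after seeing the data were gene means that omit control 4 and gene means that omit probe sets numbered far from the rest. Figures were drawn with matplotlib 3.10.9 in Python 3.11.15.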

Additional observations from a re-analysis of the deposited data

Results flagged for a closer look

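Of 26 named probe sets of the 9 genes, 3 had a control array far from the other controls, and in each it was control 4. Chance flags about 1 in 20 groups that are not picked by their values. These 26 include the largest and smallest fold change of each gene, which an outlying control can produce. That rate is therefore no yardstick here. Srsf1 probe set 10380218 read 7.23 in control 4 and 7.96 to 8.04 in the other controls. Tnrc6c probe set 10382937 read 8.76 in control 4 and 8.53 to 8.56 in the others. Ddx5 probe set 10392258 read 10.57 in control 4 and 10.81 to 10.86 in the others.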

How the results depend on the processing

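No paired analysis was possible because the labels link no Dicer1-deficient array to a control array. In none of the alternatives run did any of the 9 genes pass the limma test. Cpeb4, Msi2, Ptbp1, Srsf1 and Zfp36l1 kept a positive log2 fold change under every alternative run. The log2 fold change of Dicer1 was 0.29 on the median of its probe sets, and between -0.169 and 0.0338 with 1 array left out, turning to 0.0338 without control 4 and to 0.0013 without Dicer1-deficient array 3. That of Tnrc6c was 0.054 on the mean and 0.0195 on the median of its probe sets. That of Ddx5 was -0.0078 without Dicer1-deficient array 1 and -0.0279 without control 2, and at most 0.0715 with 1 array left out. That of Nova1 was -0.0712 without Dicer1-deficient array 3, and at most 0.2288 with 1 array left out. The cause was not tested.

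Over all genes 117 passed, and 294 on the mean, 176 on the median, 385 with array weights, 213 at an adjusted p of 0.10, 853 on the mean without control 4, and 33 to 260 with 1 array left out. Over all probe sets 561 passed, 1663 with array weights, 1037 at 0.10 and 138 to 1216 with 1 array left out. Of the 115 probe sets 1 passed, 2 with array weights or at 0.10, 0 with arrays centred on their medians, and 0 to 1 with 1 array left out. Against their own gene 20 probe sets passed, 77 with array weights, 41 at 0.10, 12 with the median of the others subtracted, 0 among probe sets above the median level, 128 with diffSplice and 0 to 43 with 1 array left out. Of the 115, 1 did so with diffSplice. In the translational control list 2 genes passed, 1 on the median of probe sets and with centred arrays, 4 on the mean without control 4, and 0 to 2 with 1 array left out.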
